A study of Mus musculus with 4 samples.

Results

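Matrix metalloproteinases (MMPs), their tissue inhibitors (TIMPs), the ADAMTS enzymes (a disintegrin and metalloproteinase with thrombospondin motifs) and the ADAMTS-like proteins were followed in 2 mouse cell lines. Both lines derive from precursors of the interstitial cells of Cajal, which pace the contractions of gut muscle. Members were chosen by gene symbol, with earlier results of these data known. The rule took every row whose symbol is Mmp, Timp, Adamts or Adamtsl followed by its family number. This gave 51 of 23358 gene rows, namely 23 MMP, 4 TIMP, 19 ADAMTS and 5 ADAMTS-like genes. Line 2xSCS2F10 was derived from the gastric muscle layers of C57BL/6J mice and kept at 37 °C in NeuroCult neural stem cell proliferation medium with 5% cell-free chick embryo extract. Line 2xSCS70 was derived from the same tissue of H-2Kb-tsA58 mice, whose transgene encodes a temperature-sensitive SV40 large T antigen driven by the interferon-inducible H-2Kb promoter. It was kept in the same basal medium at 39.5 °C in the absence of interferon gamma, and its labels name no extract. Polyadenylated RNA of 2 libraries per line was sequenced, and each group is a single line, so line, mouse strain, temperature and medium supplement cannot be told apart. Nothing in the labels states whether replicate libraries are separate cultures, so the p-values describe the spread among these 4 libraries only, and that spread may be technical.

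MMPs are zinc-dependent proteases that are made as inactive precursors and cut collagens, gelatin, proteoglycans and many cell surface proteins, either as secreted enzymes or, in the membrane-type group, at the cell surface. TIMPs bind the active site of MMPs; TIMP3 stays attached to the matrix and also inhibits several ADAMTS enzymes, and TIMP2 additionally links the membrane-type enzyme MMP14 to the precursor of MMP2 during its activation. ADAMTS enzymes trim procollagens, cut large proteoglycans such as versican and aggrecan, and, in the case of ADAMTS13, cut von Willebrand factor, while ADAMTS-like proteins keep the matrix-binding modules without a protease domain.

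Libraries held 20159986 to 24485632 fragments in genes (1 fragment is 2 deposited counts), and a floor of 3 fragments stood at 0.109 to 0.157 CPM. CPM, counts relative to library size, were scaled between libraries by the TMM method, and are used below to compare the lines; RPKM, which also divide by gene length, are used to compare genes within a library. Changes are 2xSCS70 relative to 2xSCS2F10, and a gene was called at a Benjamini-Hochberg adjusted p under 0.05 in edgeR's quasi-likelihood test over all 14496 tested genes. A change in a bulk library cannot tell fewer cells of a type from less RNA per cell. Kit, which marks mature interstitial cells, was under the floor in all libraries (1 fragment in 1 of 4). The 8 listed genes of progenitors and interstitial cells summed to 491 and 461 CPM in 2xSCS2F10 and to 750 and 715 CPM in 2xSCS70. They did not move together: of 7 tested, Cd34 and Cd44 were called higher in 2xSCS70 and 3 were not called. Ano1 (29.8 and 18.4 against 2.29 and 2.55 CPM) and Igf1r were called lower. Replicates differed by more than 2-fold for 12.4% of tested genes in 2xSCS2F10 and for 2.72% in 2xSCS70.

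The largest group of neighbours among the members was a run of 10 MMP genes on chromosome 9 (7272514 to 7699416, 427 kb, mm10, 0 other gene rows in between), in the order Mmp13, Mmp12, Mmp1b, Mmp3, Mmp1a, Mmp10, Mmp8, Mmp27, Mmp20 and Mmp7. RefSeq promoter windows on GRCm38.p6, from 250 bases before to 50 bases after a gene's start, were on hand for 36 of the 51 members. They were searched for TGANTCA, a 7-base pattern used here for the AP-1 element, which is its own reverse complement and so covers both strands. It was present in windows of 8 of the 10 genes of the run (all but Mmp8 and Mmp27) and of 0 of the 26 other members with an entry. A gene was counted if any of its windows held the pattern, as did 8.97% of all 27025 genes in the table. By window, 7.81% of all 32851 hold it. In the 8 genes the first base of the pattern lay between 95 and 35 bases before the start (positions -95 to -35). The 120 bases before the start are printed for 5 of these genes, because they carry the same element at similar distances while their counts ranged from 0 in every library (Mmp1a, Mmp7) to the highest of the run (Mmp13); capitals mark the element.
Mmp13, chr9:7272394-7272513, plus strand: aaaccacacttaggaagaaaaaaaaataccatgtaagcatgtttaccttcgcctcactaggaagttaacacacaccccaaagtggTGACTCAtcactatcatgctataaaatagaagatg
Mmp3, chr9:7445702-7445821, plus strand: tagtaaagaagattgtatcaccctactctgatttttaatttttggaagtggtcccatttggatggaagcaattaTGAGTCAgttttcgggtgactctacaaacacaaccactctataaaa
Mmp1a, chr9:7464021-7464140, plus strand: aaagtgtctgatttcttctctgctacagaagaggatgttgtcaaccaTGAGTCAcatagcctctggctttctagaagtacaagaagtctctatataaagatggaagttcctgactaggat
Mmp10, chr9:7502222-7502341, plus strand: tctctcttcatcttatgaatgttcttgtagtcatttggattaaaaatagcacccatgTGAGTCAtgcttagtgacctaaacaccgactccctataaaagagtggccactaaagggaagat
Mmp7, chr9:7691970-7692089, plus strand: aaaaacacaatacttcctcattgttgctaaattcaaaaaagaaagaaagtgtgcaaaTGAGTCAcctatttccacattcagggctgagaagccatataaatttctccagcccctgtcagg
The element starts at -35 in Mmp13, -46 in Mmp3, -73 in Mmp1a, -63 in Mmp10 and -63 in Mmp7. A match describes these letters only and does not show that a factor binds there. The table holds no entry for Adamts4, Adamts5, Adamts6, Adamts7, Adamts8, Adamts10, Adamts15, Adamts16, Adamts19, Adamtsl1, Mmp2, Mmp9, Mmp16, Mmp17 and Mmp19.

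Of the 51 members, 38 had enough counts to be tested, and 13 did not. In 11 members every library was at or under 3 fragments, and 4 of those (Mmp1a, Mmp1b, Mmp7 and Adamts19) had 0 counts throughout. Among the tested members 18 were called, which is 47.4% beside 40.6% of all tested genes: 7 were higher in 2xSCS70 (18.8% of all tested genes were) and 11 were lower (21.8% of all tested genes were). The members' share called is thus near that of all genes. Their median log2 change was -0.12, beside 0.02 over all tested genes, and the libraries of the lines did not overlap for 27 of 38, beside 77.4% of all tested genes. By family, 4 MMPs were higher and 3 lower among 16 tested, 1 TIMP was lower among 3, 1 ADAMTS was higher and 6 lower among 14, and 2 ADAMTS-like genes were higher and 1 lower among 5. Called changes of 16-fold or more were found for 8 members, beside 6.18% of all tested genes. These were Mmp9, Mmp15, Adamtsl3 and Adamts18, higher in 2xSCS70, and Mmp2, Mmp16, Adamts14 and Adamtsl1, lower; the fitted size for Adamts18 rests on 0 counts in 2xSCS2F10 and is no bound. Leaving out either 2xSCS70 library ended many of the 18 calls, and calls among all tested genes fell too. Such a fit takes its spread from the 2xSCS2F10 pair alone. Among the called members only the fitted fold of Mmp16, without 2xSCS70 replicate 1, moved by more than 1.5 times. The genes whose calls ended are given below with their adjusted p.

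**Figure D1:**
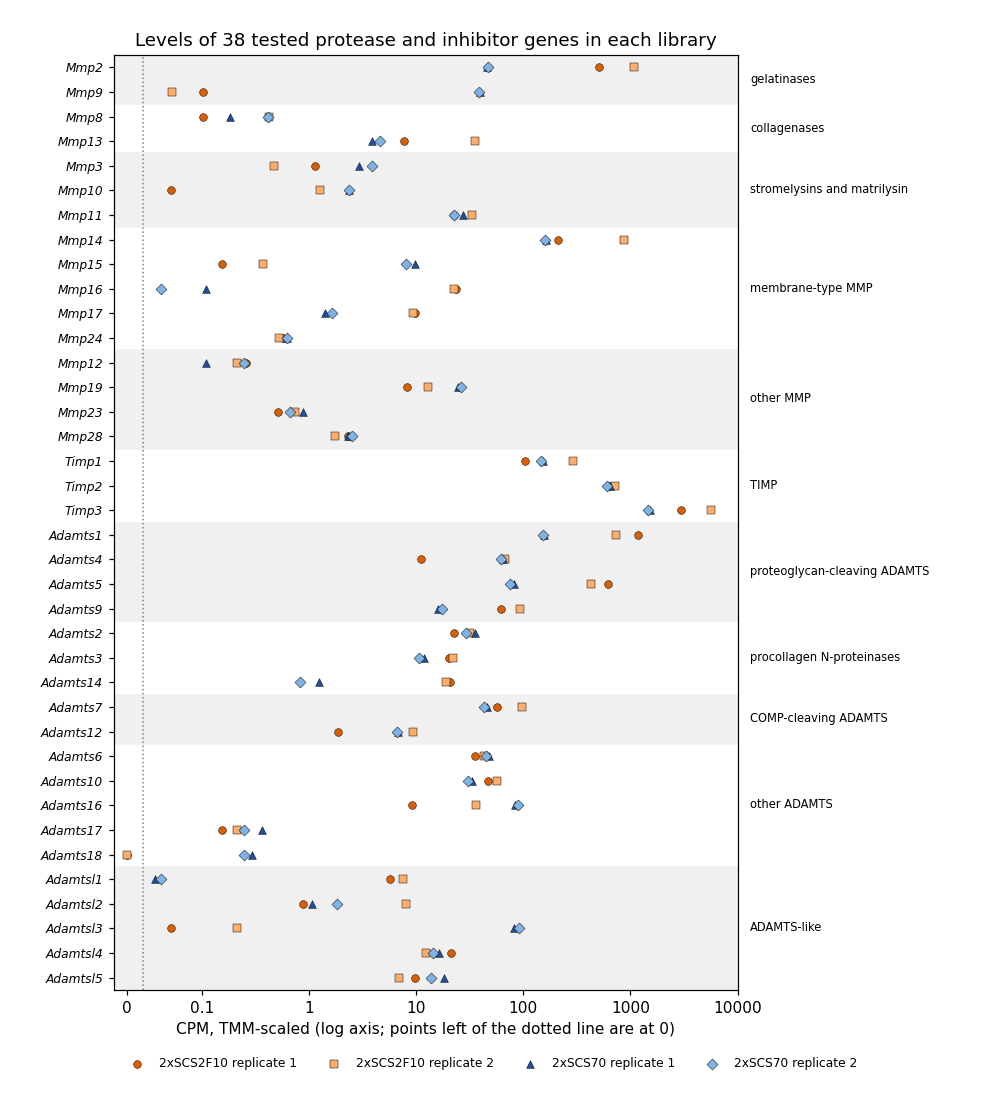
Level of each of the 38 tested members (CPM, log axis) in the 4 libraries, with 1 point per library; points left of the dotted line are at 0. Mmp9 and Adamtsl3 sit near the floor in both 2xSCS2F10 libraries and between 38.3 and 92.0 CPM in 2xSCS70, whereas Mmp16 and Adamtsl1 show the opposite arrangement.

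**Figure D2:**
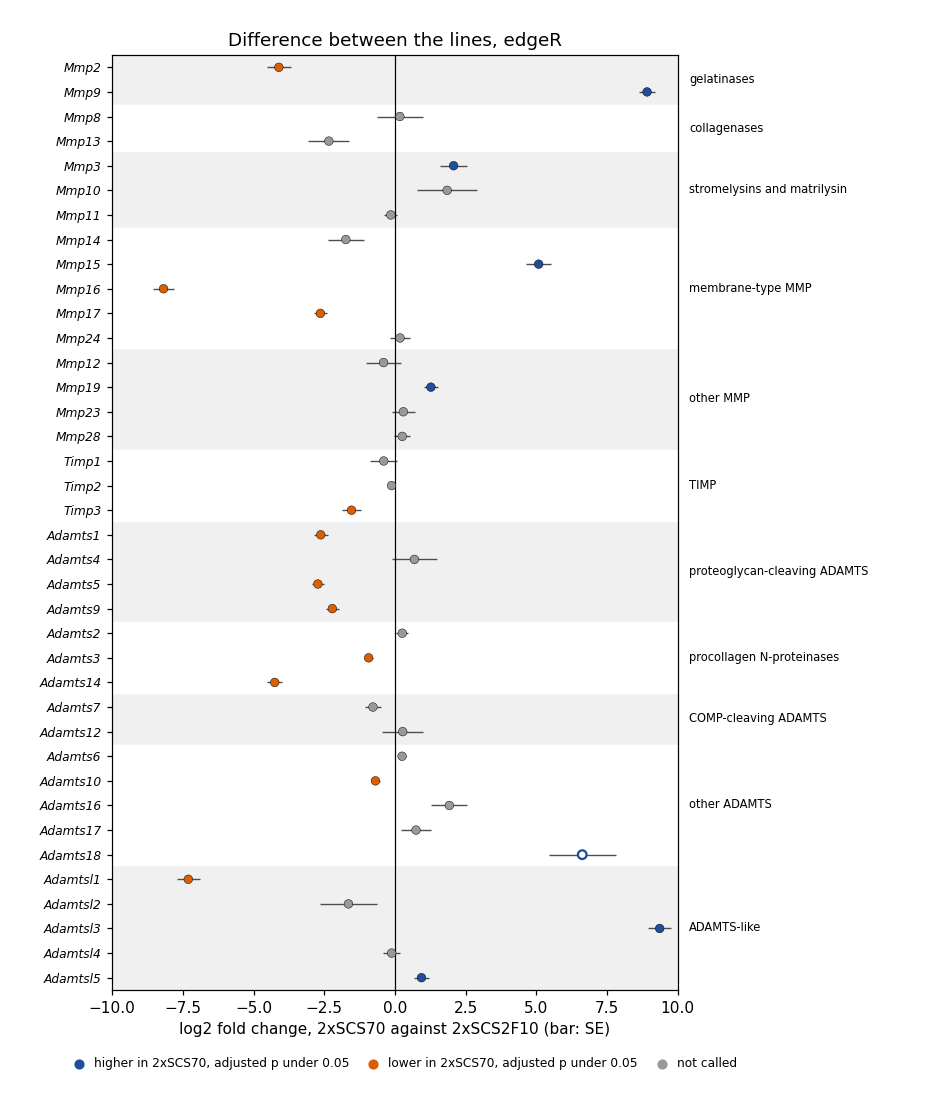
Fitted log2 change of each of the 38 tested members (2xSCS70 minus 2xSCS2F10), with bars of 1 SE. Called members spread to both sides of 0, from -8.18 for Mmp16 to 9.36 for Adamtsl3; the open point is Adamts18, whose fitted size is no bound because 2xSCS2F10 had 0 counts.

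The gelatinases, which cut denatured collagen and basement membrane collagen, changed in opposite directions. Mmp2 (chromosome 8, 92827328 to 92853420, mm10) stood at 504 and 1087 CPM in the libraries of 2xSCS2F10 and at 45.5 and 46.9 CPM in those of 2xSCS70. The lines did not overlap, and Mmp2 was 17.2-fold lower in 2xSCS70 (log2 -4.11, SE 0.41, edgeR adjusted p = 0.00288). Mmp9 (chromosome 2, 164948251 to 164955846) had 2 and 1 fragments in 2xSCS2F10 and 1080 and 933 in 2xSCS70, or 0.103 and 0.0525 against 39.2 and 38.3 CPM. At or under the floor in 1 line and well covered in the other, Mmp9 was higher in 2xSCS70 by a ratio of 498 (exact 95% interval 170 to 2417, counting error only; edgeR adjusted p = 0.000347). Per length, the gelatinases of 2xSCS70 were at nearly equal levels, with a ratio of Mmp2 to Mmp9 RPKM of 1.20 and 1.26. The fold of Mmp2 came to 10.9 without 2xSCS2F10 replicate 2, and its call ended without 2xSCS70 replicate 1 (edgeR adjusted p = 0.0568) or replicate 2 (0.0561).

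Neutrophils and macrophages are well-known sources of Mmp9, so their markers were read in the same libraries. Of 11 marker genes 8 were at or under the floor in all libraries, and Emr1, S100a9, Mpo, Elane and Cpa3 had 0 counts throughout. The leukocyte antigen Ptprc had 3, 0, 0 and 0 fragments (2xSCS2F10 replicates 1 and 2, then 2xSCS70 replicates 1 and 2), and the integrin Itgam had 0, 0, 0 and 1. The list summed to 3.80 and 5.35 CPM in 2xSCS2F10 and to 5.19 and 7.48 CPM in 2xSCS70. Within it the lysosomal genes Lyz2 (3, 3, 36 and 54 fragments) and Cd68 (30, 33, 80 and 95 fragments) were higher in 2xSCS70 (edgeR adjusted p = 0.00661 and 0.0407). The only other gene of the list above the floor, the macrophage receptor Csf1r, had 37 and 65 fragments in 2xSCS2F10 against 27 and 31, with no overlap and no call (log2 -1.24, SE 0.40, edgeR adjusted p = 0.0626).

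Membrane-type MMPs, which act at the cell surface, included the most abundant MMP of 2xSCS70 and the gene with the greatest fitted decrease among the members. Mmp16 (chromosome 4, 17853482 to 18118734), a membrane-spanning enzyme, stood at 23.7 and 22.5 CPM in 2xSCS2F10 (462 and 429 fragments) and had 3 and 1 fragments in 2xSCS70. It was 291-fold lower in 2xSCS70 (log2 -8.18, SE 0.36, edgeR adjusted p = 0.00049), and 525-fold lower without 2xSCS70 replicate 1. Both libraries of 2xSCS70 were at or under the floor, so the size rests on 4 fragments.

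Mmp15 (chromosome 8, 95352337 to 95374293), another membrane-spanning member, was at 0.154 and 0.367 CPM in 2xSCS2F10 and at 9.69 and 8.06 CPM in 2xSCS70. Both 2xSCS70 libraries lay far above those of the other line, a 33.8-fold difference (log2 5.08, SE 0.43, edgeR adjusted p = 0.00187), or 56.6-fold without 2xSCS2F10 replicate 2. Mmp17 (chromosome 5, 129584214 to 129608211), which is held at the surface by a glycolipid anchor, stood at 9.66 and 9.39 against 1.41 and 1.64 CPM. It was 6.22-fold lower in 2xSCS70 (log2 -2.64, SE 0.22, edgeR adjusted p = 0.00185), a call that ended without 2xSCS70 replicate 1 (0.0514).

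Mmp14 (chromosome 14, 54431604 to 54441258), the activator of pro-MMP2 and itself a collagenase, was at 212 and 862 CPM in 2xSCS2F10 and at 164 and 158 CPM in 2xSCS70. Both 2xSCS70 libraries lay below both 2xSCS2F10 libraries, but the latter differed from each other by 4.07-fold, and Mmp14 was not called (log2 -1.74, SE 0.65, edgeR adjusted p = 0.0865). Its log2 change came to -0.40 without 2xSCS2F10 replicate 2 and to -2.44 without replicate 1. Each of these fits leaves 1 library in 2xSCS2F10 and takes its spread from 2xSCS70, so only the sizes are given. Mmp24 was at 0.525 to 0.617 CPM in all libraries and was not called; its exons overlap those of the antisense gene BC029722, which had 707 to 911 fragments, and reads cannot be assigned to a strand. Mmp25, the remaining member, had 1 to 3 fragments per library and was not tested.

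Collagenases, stromelysins and the matrilysin Mmp7 were mostly scarce, and they sit, apart from Mmp11, in the chromosome 9 run described above. Mmp3 (chromosome 9, 7445822 to 7455974), stromelysin-1, was the only called gene of the 10, at 1.13 and 0.472 CPM in 2xSCS2F10 against 2.90 and 3.86 CPM in 2xSCS70. It was 4.20-fold higher in 2xSCS70 (log2 2.07, SE 0.48, edgeR adjusted p = 0.0255), and 7.05-fold higher without 2xSCS2F10 replicate 1. The call ended without 2xSCS70 replicate 1 (0.128) or replicate 2 (0.179).

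Mmp13 (chromosome 9, 7272514 to 7283333), collagenase-3, was at 7.71 and 35.1 CPM in 2xSCS2F10 and at 3.88 and 4.56 CPM in 2xSCS70. The lines did not overlap, but the 2xSCS2F10 replicates differed by 4.55-fold, and Mmp13 was not called (log2 -2.34, SE 0.72, edgeR adjusted p = 0.0546). It was called with the replicate number as a block (0.0347) and by DESeq2 (0.000607). The log2 change of Mmp13 was -3.07 without 2xSCS2F10 replicate 1 and -0.87 without replicate 2. Mmp10, stromelysin-2, was at 0.0514 and 1.26 against 2.36 and 2.34 CPM and was not called (log2 1.84, SE 1.05, edgeR adjusted p = 0.214). Neighbours with the same promoter element had unlike values: the highest library of Mmp13 was replicate 2 of 2xSCS2F10, and those of Mmp3 and Mmp10 were of 2xSCS70.

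Of the other genes of the run, Mmp8, the neutrophil collagenase, had 2 and 8 fragments in 2xSCS2F10 and 5 and 10 in 2xSCS70, and Mmp12, macrophage elastase, had 5 and 4 against 3 and 6. Neither was called. Mmp27 had 1 to 3 fragments per library, the tooth enamel protease Mmp20 had 1 fragment in all, and Mmp1a, Mmp1b and Mmp7 had none. A gene with 0 fragments is under the floor of 0.109 to 0.157 CPM, which at this depth does not show that it is absent. Mmp11, stromelysin-3, lies outside the run and was at 22.3 and 33.0 against 27.2 and 22.6 CPM, where the lines overlapped and no difference was called (log2 -0.15, SE 0.23, edgeR adjusted p = 0.631).

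Among the remaining MMPs, Mmp19 (chromosome 10, 128790910 to 128800824), a secreted enzyme of broad tissue range, was at 8.22 and 12.9 CPM in 2xSCS2F10 and at 24.5 and 26.4 CPM in 2xSCS70. It was 2.41-fold higher in 2xSCS70 (log2 1.27, SE 0.25, edgeR adjusted p = 0.0161), and the call ended without 2xSCS70 replicate 1 (0.118) or replicate 2 (0.137). Its exons overlap those of the antisense gene Tmem198b (473 to 688 fragments), so reads of the pair cannot be told apart. Mmp28 at 1.73 to 2.51 CPM and Mmp23 at 0.514 to 0.871 CPM were not called, and Mmp21 had 0 to 4 fragments.

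The TIMP transcripts were led by Timp3, the matrix-bound inhibitor, which was the only called member of its family. Timp3 (chromosome 10, 86300412 to 86349505) stood at 2968 and 5652 CPM in 2xSCS2F10 and at 1508 and 1457 CPM in 2xSCS70. Every 2xSCS70 value lay below every 2xSCS2F10 value, and Timp3 was 2.91-fold lower (log2 -1.54, SE 0.34, edgeR adjusted p = 0.0228), a call that ended without 2xSCS70 replicate 1 (0.193) or replicate 2 (0.205). Its gene overlaps exons of the antisense gene Syn3, which had 46 to 95 fragments.

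Timp2 (chromosome 11, 118301061 to 118355411) was at 637 and 717 CPM in 2xSCS2F10 and at 638 and 606 CPM in 2xSCS70. These libraries overlapped, and no difference was called (log2 -0.12, SE 0.14, edgeR adjusted p = 0.501). Timp1 (chromosome X, 20870166 to 20874737), the secreted inhibitor that also binds the precursor of MMP9, was at 103 and 293 against 152 and 148 CPM. The 2xSCS70 libraries lay between those of 2xSCS2F10, and Timp1 was not called (log2 -0.40, SE 0.48, edgeR adjusted p = 0.533). Against 2xSCS2F10 replicate 2 alone Timp1 was lower (log2 -0.98), and against replicate 1 alone it was higher (log2 0.54), so its direction depends on the library. Timp4 had at most 1 fragment in any library.

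Set against each other per length, the inhibitors exceeded the MMPs in every library. Summed RPKM of the 4 TIMPs were 714 and 1119 in 2xSCS2F10 and 586 and 510 in 2xSCS70, while those of the 23 MMPs were 211 and 472 against 104 and 91.4. RPKM carry no TMM scaling, so these sums serve to set the families against each other within a library. The TIMP share of both sums together was 77.2% and 70.3% in 2xSCS2F10 (73.8% ± 4.86, SD, n = 2) and 84.9% and 84.8% in 2xSCS70 (84.9% ± 0.097, SD, n = 2). Both 2xSCS70 libraries thus lay above both 2xSCS2F10 libraries; an exact permutation test on 2 against 2 libraries cannot reach 0.05, and none was run.

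The ratio of TIMP to MMP RPKM was 3.39 and 2.37 in 2xSCS2F10 and 5.63 and 5.57 in 2xSCS70, and with the ADAMTS enzymes added to the proteases it was 1.43 and 1.68 against 2.83 and 2.81. These sums rest on a few genes. Without Mmp2, an alternative chosen after seeing the data for 2xSCS70, the TIMP share was 89.6% and 82.3% in 2xSCS2F10 and 86.6% and 86.5% in 2xSCS70, so that the libraries of the lines overlapped and the difference in share ended. Without Mmp14 it was 82.9% and 81.3% against 92.3% and 92.1%, and without Timp3 51.6% and 41.9% against 74.5% and 74.2%. RNA sums say nothing of protein, precursor activation or binding.

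The makeup of each family differed between the lines. Mmp2 and Mmp14 together held 90.6% and 94.3% of MMP RPKM in 2xSCS2F10 and 65.7% and 65.8% in 2xSCS70. Mmp2 alone went from 60.7% and 48.9% in 2xSCS2F10 to 12.6% and 13.3% in 2xSCS70, whereas Mmp14 held 29.9% and 45.4% against 53.1% and 52.5%. Mmp14 was thus the leading MMP of 2xSCS70 by RPKM, although its own CPM was not higher there.

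In 2xSCS70 the largest shares of the rest were those of Mmp9 (10.5% and 10.6%), Mmp11 (10.2% and 8.70%) and Mmp19 (5.96% and 6.62%). These genes held at most 3.63% each in 2xSCS2F10. Timp3 held 68.5% and 69.6% of TIMP RPKM in 2xSCS2F10 and 48.1% and 48.3% in 2xSCS70. The ratio of Timp2 to Mmp14, partners in pro-MMP2 activation, was 2.16 and 0.596 in 2xSCS2F10 and 2.79 and 2.76 in 2xSCS70, and the spread in 2xSCS2F10 follows its unequal Mmp14 values. That of Mmp2 to Mmp14 was 2.03 and 1.08 against 0.237 and 0.254, with no overlap between the lines.

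**Figure D3:**
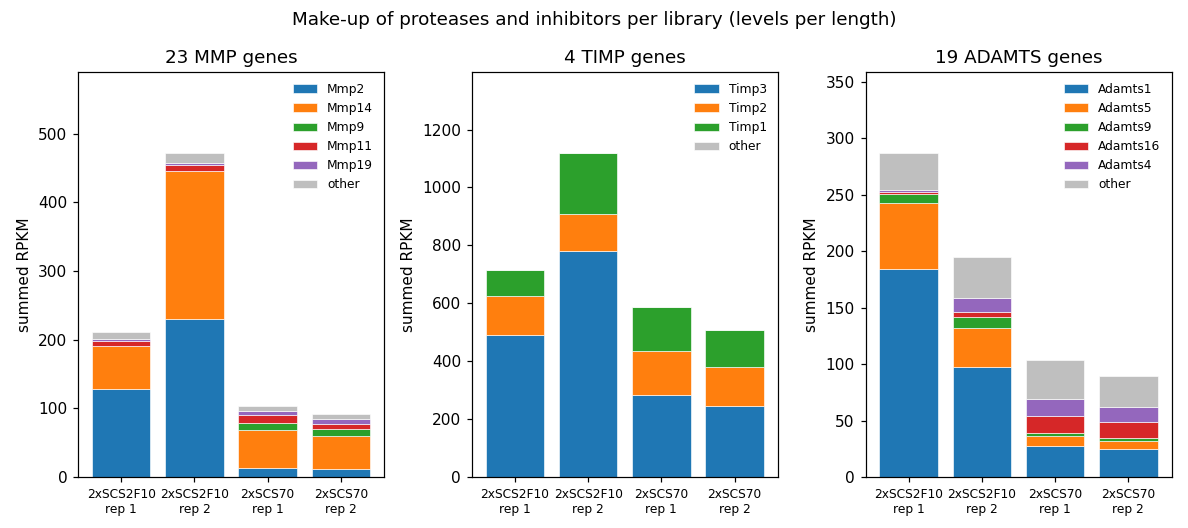
Summed RPKM of the 23 MMP, 4 TIMP and 19 ADAMTS genes in each of the 4 libraries (stacked bars from 0, 1 panel per family with its own scale), coloured by leading gene. RPKM carry no TMM scaling, so the bars show the makeup within a library. MMP bars reach 211 and 472 RPKM in 2xSCS2F10 and 104 and 91.4 in 2xSCS70, where Mmp2 makes up 12.6% and 13.3% of the bar; Timp3 makes up 48.1% and 48.3% of the TIMP bars of 2xSCS70, and Adamts1 with Adamts5 35.4% and 35.9% of its ADAMTS bars.

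The proteoglycan-cleaving ADAMTS enzymes had 3 called members among 4 tested, all lower in 2xSCS70. Of all tested genes, 21.8% were called lower. Adamts1 (chromosome 16, 85793828 to 85803115), a versican-cleaving enzyme, was at 1165 and 739 CPM in 2xSCS2F10 and at 154 and 154 CPM in 2xSCS70. It was 6.18-fold lower (log2 -2.63, SE 0.25, edgeR adjusted p = 0.00256). Adamts5 (chromosome 16, 85858157 to 85901125), a major aggrecanase, was at 616 and 425 against 82.2 and 75.0 CPM, and was 6.62-fold lower (log2 -2.73, SE 0.22, edgeR adjusted p = 0.00163). The genes are neighbours, 55.0 kb apart, with only 4930556C24Rik (0 counts) between them.

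Per length Adamts1 was the more abundant of the pair, with a ratio to Adamts5 of 3.14 and 2.88 in 2xSCS2F10 and 3.12 and 3.40 in 2xSCS70. Together they held 84.6% and 67.4% of ADAMTS RPKM in 2xSCS2F10 and 35.4% and 35.9% in 2xSCS70. Adamts9 (chromosome 6, 92772699 to 92901441), which also cuts versican, was at 62.1 and 93.7 against 16.0 and 17.5 CPM and was 4.65-fold lower (log2 -2.22, SE 0.23, edgeR adjusted p = 0.00323). Without 2xSCS70 replicate 1 or 2 the calls of Adamts1 (0.0579 and 0.0577) and Adamts9 (0.0607 and 0.0563) ended, and that of Adamts5 was kept (0.0424 and 0.0443).

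Adamts4 (chromosome 1, 171250422 to 171259922), the other well-known aggrecanase, was at 11.0 and 67.3 CPM in 2xSCS2F10 and at 64.0 and 61.8 CPM in 2xSCS70. The replicates of 2xSCS2F10 differed by 6.12-fold and enclosed both 2xSCS70 libraries, and no difference was called (log2 0.68, SE 0.79, edgeR adjusted p = 0.515). Without 2xSCS2F10 replicate 2 the log2 change of Adamts4 was 2.51. Adamts8 and Adamts15, neighbours on chromosome 9 20.1 kb apart, had 0 to 4 fragments per library, and Adamts20 had at most 1.

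The substrate versican was lower as well: Vcan was at 556 and 709 CPM in 2xSCS2F10 and at 4.72 and 5.92 CPM in 2xSCS70, a 119-fold difference (log2 -6.90, SE 0.24, edgeR adjusted p = 0.000347). It was the only called gene among 4 tested ADAMTS substrates, and aggrecan (Acan) had 8, 18, 4 and 0 fragments.

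Procollagen N-proteinases, which remove the amino-terminal propeptide of fibrillar collagens, had 2 called members among 3, both lower in 2xSCS70. The share called lower was 21.8% over all tested genes. Adamts14 (chromosome 10, 61197112 to 61273438) was at 20.5 and 18.9 CPM in 2xSCS2F10 and at 1.23 and 0.822 CPM in 2xSCS70, which is 19.1-fold lower (log2 -4.25, SE 0.27, edgeR adjusted p = 0.000928). Adamts3 (chromosome 5, 89673841 to 89883334) was at 20.3 and 22.1 against 11.7 and 10.6 CPM, 1.91-fold lower (log2 -0.93, SE 0.15, edgeR adjusted p = 0.00978). That call ended without 2xSCS70 replicate 1 (0.111) or replicate 2 (0.138), and with limma on log2(RPKM + 1) (0.0636). Adamts2, the family's founding N-proteinase, was at 22.6 and 31.5 against 35.7 and 28.9 CPM, with overlap and no call (log2 0.26, SE 0.22, edgeR adjusted p = 0.382).

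Of the enzymes that cut cartilage oligomeric matrix protein, Adamts7 was at 56.2 and 96.2 CPM in 2xSCS2F10 and at 46.0 and 42.7 CPM in 2xSCS70. The lines did not overlap, but no difference was called (log2 -0.78, SE 0.27, edgeR adjusted p = 0.0747); DESeq2 called it (0.0296). Adamts12 was at 1.85 and 9.29 against 6.82 and 6.62 CPM and was not called either (log2 0.27, SE 0.71, edgeR adjusted p = 0.779). Like Timp1, Adamts12 changed direction with the 2xSCS2F10 library kept, and was higher without replicate 2 (log2 1.86) and lower without replicate 1 (log2 -0.48). Adamts13, which cuts von Willebrand factor, had 2 fragments in all.

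Among the other ADAMTS genes, Adamts16 (chromosome 13, 70727808 to 70841810) was at 9.04 and 36.5 CPM in 2xSCS2F10 and at 83.8 and 88.6 CPM in 2xSCS70. Both 2xSCS70 libraries lay above both of the other line, but the 4.03-fold difference between the latter's replicates was wide, and Adamts16 was not called (log2 1.92, SE 0.64, edgeR adjusted p = 0.0658). It was called with the replicate number as a block (0.0224) and with limma on log2(RPKM + 1) (0.0138). Its share of ADAMTS RPKM was 0.489% and 2.43% in 2xSCS2F10 and 14.3% and 15.7% in 2xSCS70, beside 14.8% and 14.8% for Adamts4 in 2xSCS70.

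Adamts10 (chromosome 17, 33524196 to 33553782), an enzyme tied to fibrillin microfibrils, was at 47.0 and 56.3 against 33.3 and 30.7 CPM and was 1.62-fold lower (log2 -0.69, SE 0.15, edgeR adjusted p = 0.0204). The call ended without 2xSCS70 replicate 1 (0.157) or replicate 2 (0.201) and with limma on log2(RPKM + 1) (0.15). Its relative Adamts6 was at 35.0 and 43.0 against 48.1 and 44.6 CPM and was not called (log2 0.25, SE 0.15, edgeR adjusted p = 0.244).

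Adamts18 (chromosome 8, 113698137 to 113848839) had 0 fragments in both 2xSCS2F10 libraries and 8 and 6 in 2xSCS70 (0.290 and 0.247 CPM; edgeR adjusted p = 0.0194). Taken against the floor of 3 fragments per library it was at least 1.70-fold higher, and its call ended without 2xSCS70 replicate 1 (0.129) or replicate 2 (0.117) and with limma on log2(RPKM + 1) (0.256). Adamts17 had 3 and 4 against 10 and 6 fragments and was not called, and Adamts19 had none.

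The ADAMTS-like genes encode matrix proteins without protease activity. By fitted log2 change they held both the largest increase among the members and the decrease next in size after Mmp16. Adamtsl3 (chromosome 7, 82335694 to 82614448) had 1 and 4 fragments in 2xSCS2F10 and 2262 and 2238 in 2xSCS70, or 0.0514 and 0.210 against 82.1 and 92.0 CPM. It was 656-fold higher in 2xSCS70 (log2 9.36, SE 0.41, edgeR adjusted p = 0.00049), a size that rests on 5 fragments and came to 406-fold without 2xSCS2F10 replicate 1 and 1609-fold without replicate 2. Adamtsl1 (chromosome 4, 86053915 to 86428382) showed the reverse, with 110 and 142 fragments in 2xSCS2F10 (5.65 and 7.45 CPM) and 1 and 1 in 2xSCS70. It was lower in 2xSCS70 by a ratio of 170 (exact 95% interval 46.5 to 1409, counting error only; edgeR adjusted p = 0.000716).

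Adamtsl5 (chromosome 10, 80340716 to 80348446) was at 9.71 and 6.93 against 18.0 and 13.8 CPM and was 1.91-fold higher (log2 0.93, SE 0.25, edgeR adjusted p = 0.0376), a call that ended without 2xSCS70 replicate 1 (0.266) or replicate 2 (0.139). Adamtsl4 was at 21.1 and 12.2 against 16.4 and 14.3 CPM, with the 2xSCS70 libraries inside the range of the other line and no call (log2 -0.12, SE 0.29, edgeR adjusted p = 0.762). Adamtsl2 was at 0.873 and 8.08 against 1.05 and 1.81 CPM and was not called (log2 -1.65, SE 1.01, edgeR adjusted p = 0.241). Summed RPKM of the 5 genes, which carry no TMM scaling, were 7.91 and 6.03 in 2xSCS2F10 and 20.0 and 17.6 in 2xSCS70. In CPM the 5 genes summed to 37.4 and 34.9 against 118 and 122.

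Replicate spread was unequal, and several members not called above were among the most variable. Of 31 tested members with more than 3 fragments in both 2xSCS2F10 libraries, 9 differed by more than 2-fold between them, beside 9.71% of all such genes. These were Adamtsl2 (9.26-fold), Adamts4 (6.12), Adamts12 (5.02), Mmp13 (4.55), Mmp14 (4.07), Adamts16 (4.03), Timp1 (2.85), Mmp3 (2.39) and Mmp2 (2.16); Mmp3 was higher in replicate 1 and the others in replicate 2. In 2xSCS70 only Mmp8 (2.27-fold) of 35 members did so, beside 1.79%. Whether the replicate number marks a batch was not tested.

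**Figure D4:**
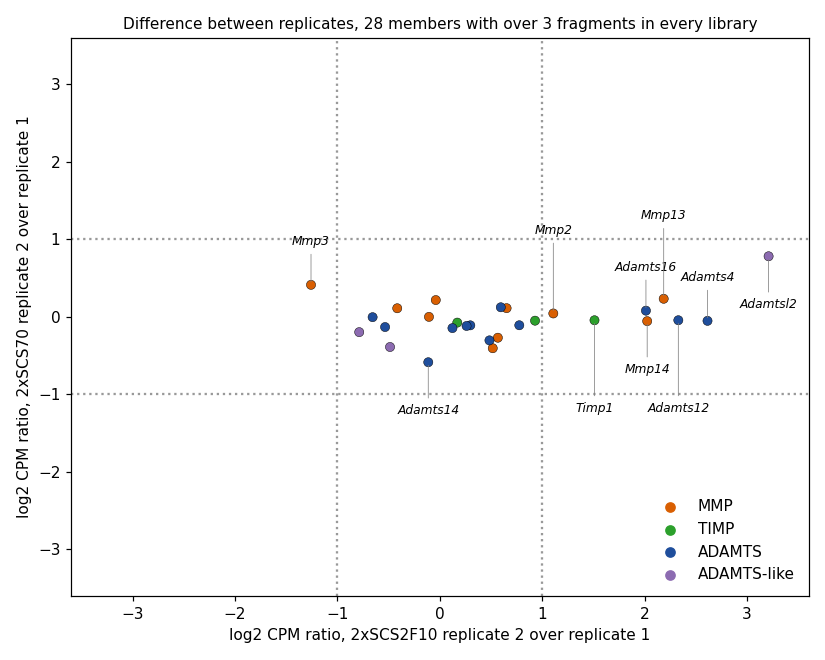
Log2 ratio of replicate 2 to replicate 1 in 2xSCS2F10 (horizontal) and in 2xSCS70 (vertical), for the 28 members with more than 3 fragments in every library; dotted lines mark 2-fold. Points spread along the horizontal axis up to the 9.26-fold difference of Adamtsl2, and no point passes 2-fold on the vertical axis.

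A list of other matrix turnover genes, chosen with earlier results of these data known, was read beside the members. Of the listed genes 53 had a row and 42 were tested. Among these 5 were higher and 13 lower in 2xSCS70, or 42.9% of those tested beside 40.6% of all genes. The plasminogen system, which yields plasmin, an activator of several pro-MMPs, had 4 lower among 8 tested, beside 21.8% of all tested genes. They included the inhibitor Serpini1 (7.45 and 15.1 against 2.79 and 2.67 CPM, 4.11-fold, edgeR adjusted p = 0.0145), tissue plasminogen activator Plat (51.2 and 35.4 against 22.0 and 22.6 CPM, 1.94-fold, 0.0216) and the inhibitor Serpinb2. The last had 18 and 26 fragments against 3 and 0, a ratio of 19.8 (exact 95% interval 6.33 to 99.5; edgeR adjusted p = 0.0215). Without 2xSCS70 replicate 1 or 2 the calls of Serpini1 (0.127 and 0.132), Plat (0.173 and 0.164) and Serpinb2 (0.0523 and 0.0864) ended, as did that of Plat with limma on log2(RPKM + 1) (0.125); the fold of Serpini1 came to 2.73 without 2xSCS2F10 replicate 2, and that of Serpinb2 to 10.3 without 2xSCS70 replicate 2.

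The proprotein convertases, which cut the propeptide of membrane-type MMPs and ADAMTS enzymes, were called in 3 of 3 tested, in both directions. Of all tested genes, 40.6% were called. Pcsk6 was at 146 and 154 CPM in 2xSCS2F10 and at 3.16 and 3.29 CPM in 2xSCS70, 46.5-fold lower (edgeR adjusted p = 0.000347). Furin was 2.19-fold higher (47.1 and 72.9 against 142 and 121 CPM, edgeR adjusted p = 0.02), and Pcsk7 1.53-fold higher (25.4 and 27.8 against 43.4 and 37.7 CPM, 0.0255). The calls of Furin (0.149 and 0.109) and Pcsk7 (0.241 and 0.148) ended without 2xSCS70 replicate 1 or 2.

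Of 6 other inhibitors and uptake factors tested, only Pcolce2, an enhancer of procollagen C-terminal processing that sat in that list, was called. It was at 6.83 and 3.52 against 84.9 and 78.9 CPM, 15.8-fold higher (edgeR adjusted p = 0.002). Basigin (Bsg), an inducer of MMPs, was at 363 and 545 against 338 and 310 CPM and was not called (edgeR adjusted p = 0.136). Its log2 change was -0.76 without 2xSCS2F10 replicate 1 and -0.17 without replicate 2.

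Among 16 other matrix and surface proteases tested, 1 was higher and 5 lower, beside 18.8% and 21.8% of all tested genes. The membrane proteases Adam9 (509 and 497 against 166 and 161 CPM, 3.07-fold lower, edgeR adjusted p = 0.00122) and Adam8 (0.771 and 0.735 against 6.68 and 5.71 CPM, 8.20-fold higher, 0.00198) moved in opposite directions; without 2xSCS70 replicate 2 the call of Adam9 ended (0.051). The surface peptidase Dpp4 had 107 and 175 against 2 and 0 fragments, lower by a ratio of 190 (exact 95% interval 52.1 to 1576; edgeR adjusted p = 0.00317). Its fitted fold came to 97.4 without 2xSCS70 replicate 2, and without replicate 1 the remaining library of that line has 0 fragments.

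Of 4 tested relatives of the ADAMTS-like proteins and enzymes that glycosylate thrombospondin repeats, 1 was higher and 2 were lower in 2xSCS70. Over all tested genes these shares were 18.8% and 21.8%. Thsd4, an ADAMTS-like protein by structure, was at 54.1 and 74.1 against 0.181 and 0.0411 CPM, 545-fold lower (edgeR adjusted p = 0.000661), a size that rests on 6 fragments in 2xSCS70 and came to 1454-fold without its replicate 1 and 348-fold without its replicate 2. Papilin (Papln) had 13 and 13 against 3 and 4 fragments, 4.90-fold lower (edgeR adjusted p = 0.0173), a call that ended without 2xSCS70 replicate 1 (0.16) or 2 (0.117) and with limma on log2(RPKM + 1) (0.0968). The glucosyltransferase B3galtl was at 22.2 and 23.3 against 74.0 and 73.0 CPM, 3.23-fold higher (edgeR adjusted p = 0.00121). The fucosyltransferase Pofut2, named here as the remaining gene of the group, was at 65.7 and 95.8 against 67.2 and 55.4 CPM, with overlap and no call (edgeR adjusted p = 0.207).

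Mesothelial and most smooth muscle markers were lower in 2xSCS70, while the endothelial list and the cartilage and bone list were mixed. Of all tested genes, 21.8% were called lower and 18.8% higher. All 8 mesothelial markers were lower, summing to 3858 and 4501 CPM in 2xSCS2F10 and to 108 and 96.4 CPM in 2xSCS70. Smooth muscle markers were lower for 4 of 5 tested, with sums of 1768 and 3260 against 43.7 and 43.2 CPM; Myocd had at most 1 fragment in any library. Endothelial markers summed to 5.80 and 9.34 against 4.86 and 4.11 CPM, with Cdh5 (0 and 0 against 10 and 14 fragments) called higher and Tek lower. Those of cartilage and bone summed to 57.6 and 52.7 against 104 and 107 CPM, with Sox9 and Runx2 called higher and Sp7 lower. The part of these cell types in the changes of Mmp2, Timp3, Adamts1, Adamts5 and the other members was not tested.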

How the data were processed

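Total RNA was isolated with Qiagen miRNeasy and made into 4 libraries (2 per line) by Illumina TruSeq mRNA preparation, which does not mark strand, per the labels' protocols. The submitters' processing notes name TopHat2 2.0.6, Bowtie, HTSeq and mm10; which annotation served for counting was not given in the sources used here. Raw gene counts were deposited per library, all of them even, and 1 fragment was taken as 2 counts. The authors also deposited RPKM values, which divide counts by gene length and library reads, per the file headers. In the tables of replicate 1, 25 gene names turned into dates were restored from the other tables.

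Counts in genes were 40319972 and 45098902 for 2xSCS2F10 and 48971264 and 44737008 for 2xSCS70. Lines were grouped from the labels and compared with edgeR 4.0.16 (R 4.3.3; quasi-likelihood test, TMM scaling, filterByExpr, Benjamini-Hochberg over 14496 genes, threshold 0.05), with all 4 libraries and no covariate. The SE was derived as the absolute log2 change over the root of the test's F. Genes with 1 to 3 fragments in a line are given as a ratio with an exact 95% binomial interval, and a gene at 0 against a floor of 3 fragments per library; these intervals and floors cover counting error only. Members with a mean of at least 10 CPM in a line, or called, are given by library; of the other matrix turnover genes, up to 3 called genes of each group with the lowest adjusted p, or else the most abundant. Members and lists were chosen with earlier results of these data known. The test was checked on simulated counts with a common spread for all genes and both lines. Replicate spread was unequal between these lines, a setting that the simulated counts did not cover. Alternatives were a block for replicate number, upper quartile and RLE scaling, all genes without the filter, each library left out, DESeq2 1.42.0, and limma 3.58.1 on log2(RPKM + 1) and log2(RPKM + 0.1). Promoter windows came from RefSeq on GRCm38.p6. Python 3.11.15 was used for tables and plots.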

Additional observations from a re-analysis of the deposited data

How the results depend on the processing

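With 2 libraries per line the calls depend most on single libraries. All genes called (5888) ranged from 850 to 9567 when a library was left out, those higher (2727) from 291 to 4772 and those lower (3161) from 559 to 4795; the lone library was then taken to vary like the other line. The called members (18) ranged from 7 to 29, those higher (7) from 3 to 14 and those lower (11) from 4 to 18, and the called turnover genes (18) from 7 to 30. All 18 member calls were kept with the replicate block, RLE or upper quartile scaling, no filter and DESeq2. With limma on either RPKM scale, Adamts3, Adamts10 and Adamts18 were lost. Gene names turned into dates occurred in the replicate 1 tables, so the replicate number may mark a batch shared by the lines. The correlation of deviations between the lines was 0.054 (2 pairs), which cannot settle this. The replicate block called 5222 genes (2381 higher and 2841 lower) and 8 members higher and 12 lower. limma called 3218 genes higher and 1828 lower on log2(RPKM + 1), and 3377 and 1964 on log2(RPKM + 0.1), or 63.8% and 63.2% higher beside 46.3%. Median log2 changes of all genes shifted from 0.02 to 0.11 with upper quartile scaling and to 0.15 and 0.25 with limma. The TIMP share was 79.3% in 2xSCS2F10 and 87.5% in 2xSCS70 on counts. On RPKM it was 70.3% to 77.2% and 84.8% to 84.9% over single libraries. In the same order, its RPKM means were 46.7% and 74.4% without Timp3, and 82.1% and 92.2% without Mmp14. Without Mmp2 they were 85.9% and 86.5%, which ended the difference. The removal of the same MMP from both lines was added after seeing the data. Changes of sign arose only in members not called in the edgeR test of all libraries. With a library left out, the log2 change ranged from -0.11 to 2.51 for Adamts4, -2.52 to 0.70 for Adamtsl2, -0.46 to 0.32 for Adamtsl4, -1.08 to 0.078 for Mmp12, -0.53 to 1.48 for Mmp8, -0.42 to 0.16 for Mmp11, -0.48 to 1.86 for Adamts12 and -0.98 to 0.54 for Timp1; Mmp8 was also at -0.52 without 2xSCS70 replicate 2. With limma on log2(RPKM + 1) and log2(RPKM + 0.1) it was 0.11 and 0.16 for Adamtsl4, 0.10 and 0.11 for Mmp11, 0.12 and 0.12 for Timp2, and 0.025 and 0.026 for Timp1. On both RPKM scales the fitted changes of Mmp9, Mmp15, Mmp16, Adamts14, Adamts18, Adamtsl1 and Adamtsl3 moved by more than 1.5 times, where the pseudocount weighs on low values. The limma fits used the deposited RPKM without TMM scaling. TMM library sizes were 38933265 and 38106359 in 2xSCS2F10, beside 40319972 and 45098902 counts in genes. In 2xSCS70 they were 55126034 and 48663010, beside 48971264 and 44737008. The cause of the differences between settings was not tested.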
